A study of Mus musculus with 14 samples.

Results

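Interferon response genes are the antiviral and immune genes that a cell switches on when interferon binds its receptors. The set described here holds 40 named mouse genes, each found on the arrays by its gene name or an older symbol, of 27343 gene names in all. The brightest probe of a gene, averaged over the arrays, stood for it. By role the set has 29 effectors, 4 sensors of foreign nucleic acid or their relatives, 4 STAT or IRF transcription regulators, and 3 genes for the receptor and its feedback. In Rheb1-/- myeloid cells 22 of the 39 genes that could be tested were lower than in wild-type myeloid cells and none was higher. Of all genes tested 17.6% were lower and 16.7% higher there, and genotype and array slide cannot be told apart in these cells. Rsad2, Oasl2, Isg20, Isg15 and Rtp4 had the largest differences. In myeloid progenitors none of the 39 passed the test for genotype, where 13 of all 17727 genes did. There 32 of the 39 differences lay below 0, against 45.6% of all genes. The genotype difference itself differed between the cell types for 2 of the 39, where 11.1% of all genes passed in either direction and 5.45% in this one. In both genotypes most of the set was higher in myeloid cells than in progenitors.

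Type I interferons bind the paired receptor Ifnar1 and Ifnar2, whose kinases phosphorylate Stat2. Stat2 acts with Irf9 in a complex that binds interferon-stimulated response elements in the promoters of target genes. Irf7, itself such a target, drives further interferon production, and Usp18 damps the receptor. Myeloid cells carry a resting level of many of these genes and raise them strongly on infection.

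Total RNA of 14 samples was measured, each on 1 single-colour array. The Rheb1-/- samples came from Vav1-cre; Rheb1fl/fl mice, in which a Cre recombinase driven in blood-forming cells deletes floxed Rheb1, the gene (official symbol Rheb) of a small GTPase that activates the growth kinase complex mTORC1. Their comparators came from mice labelled wild type, and the labels do not say whether those mice carried Vav1-cre or the floxed alleles. There were 3 Rheb1-/- and 3 wild-type samples each of myeloid progenitors and of myeloid cells, and 1 Rheb1-/- and 1 wild-type sample of hematopoietic stem cells. No treatment, infection or interferon exposure, and no age, is named in the labels. Nor do they link samples to animals. The p-values thus rest on the spread between these samples, which may be partly technical.

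Between 58.5% and 67.6% of spots were well above background on an array, 0 were saturated, and the correlation of replicates across genes was 0.988 to 0.992. The arrays lay on 4 slides. All 3 wild-type myeloid cell arrays shared slide 1 with the Rheb1-/- stem cell array, and all 3 Rheb1-/- myeloid cell arrays shared slide 4 with Rheb1-/- progenitor array 3. Genotype and slide therefore cannot be told apart in myeloid cells. In progenitors slide 3 held Rheb1-/- arrays 1 and 2 with wild-type arrays 2 and 3, and its values are given below as within-slide values. Wild-type progenitor array 1 lay on slide 2 with the wild-type stem cell array, scanned on another day than the rest.

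Rheb itself checked the labels. Its log2 level was 2.23, 2.16 and 2.43 on the Rheb1-/- myeloid cell arrays, against 3.61, 3.00 and 2.86 on the wild-type ones, a difference of -0.88 ± 0.22 (SE, limma, Benjamini-Hochberg adjusted p = 0.0121). In progenitors it was 3.31, 2.69 and 2.65 in Rheb1-/- samples, against 3.99, 4.08 and 3.82 in wild type, a difference of -1.08 ± 0.22 that did not pass (adjusted p = 0.0951). The stem cell arrays had 2.31 in Rheb1-/- and 3.51 in wild type. Within each cell type no Rheb1-/- array reached the lowest wild-type value of Rheb, although its signal stayed well above background, and whether the probe lies in the deleted part was not looked up here.

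Marker genes were set against the labelled cell types. The 8 progenitor markers had a mean log2 level of 5.81 to 5.94 on the 6 progenitor arrays and 3.32 to 4.20 on the 6 myeloid cell arrays. The 10 mature neutrophil markers ran the other way, with 7.71 to 8.25 on myeloid cell arrays and 3.78 to 4.72 on progenitor arrays. The 6 stem cell markers averaged 0.39 and 0.05 on the Rheb1-/- and wild-type stem cell arrays and -4.49 to -2.16 on all others. The wild-type stem cell array also had a mean of 3.41 over 9 monocyte and macrophage markers, above the 2.69 to 2.84 of wild-type myeloid cells, whereas the Rheb1-/- stem cell array had 0.50.

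A log2 level here is the log2 processed intensity of a probe minus the 75th percentile of its array, so that 0 is the brightness of the 75th-percentile spot. Levels are compared between samples for 1 probe, never between genes. Of the 40 genes 39 were well above background on all 14 arrays. Oas1g was so on 0 of the 14, at -7.89 to -5.80 on every array, and was not tested.

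**Figure D1:**
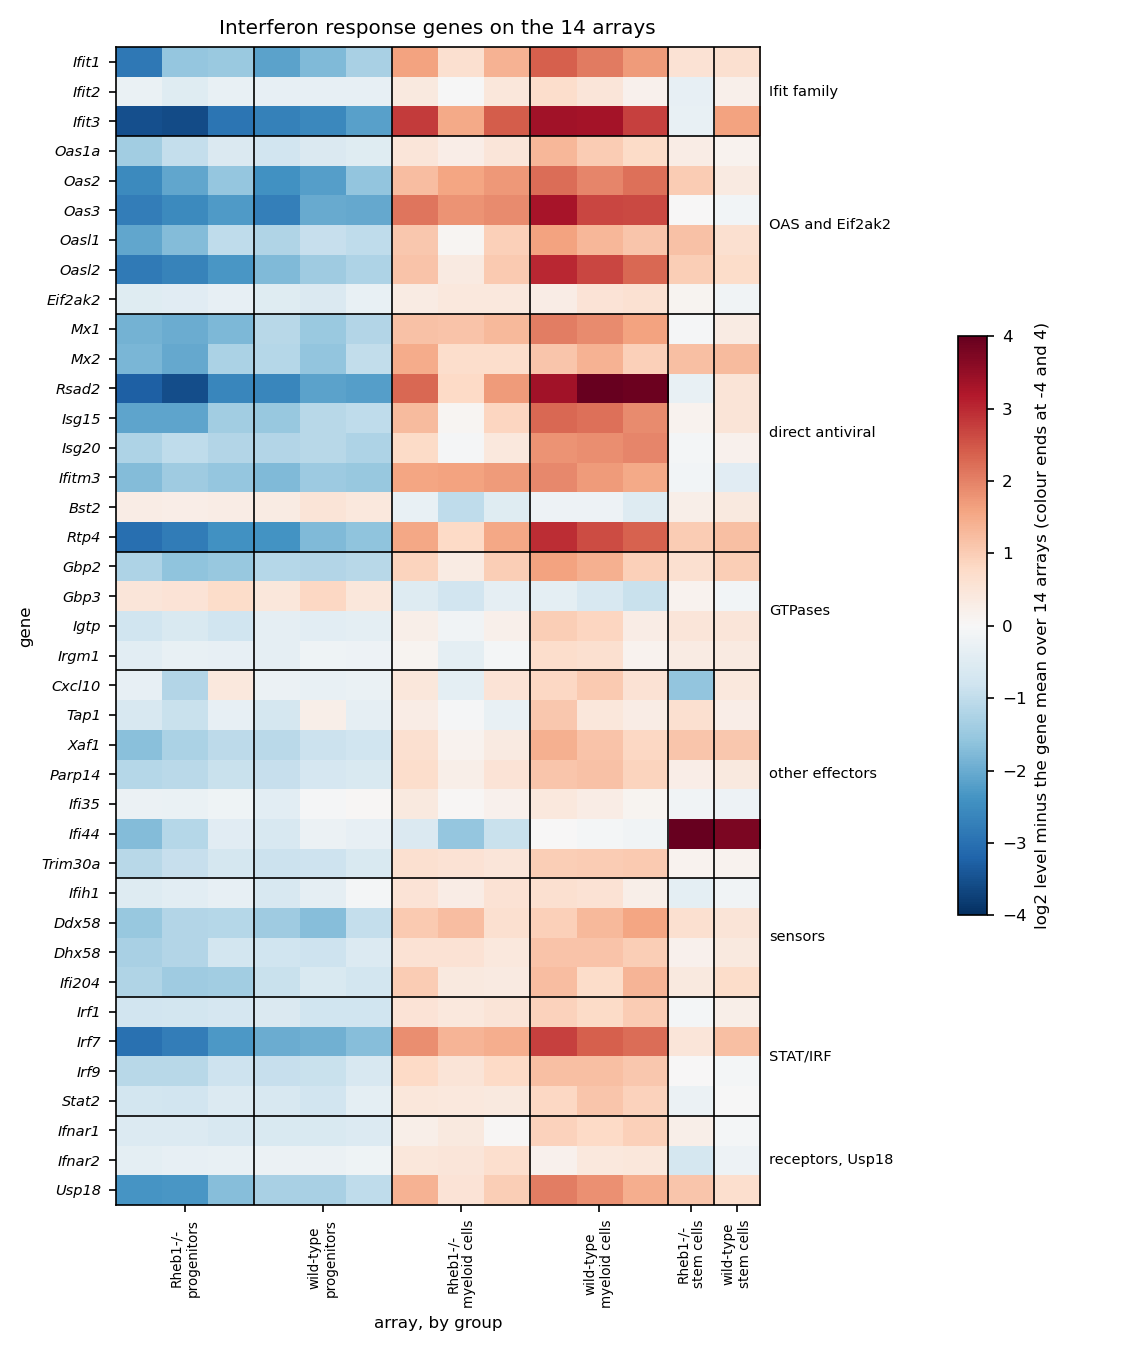
Log2 level of the 39 tested genes on each of the 14 arrays, minus the gene's mean over those arrays, in colour, with genes in rows by role and arrays in columns by group, Rheb1-/- left of wild type. Most rows are blue in progenitors and red in myeloid cells, deepest in wild-type myeloid cells, while Bst2 and Gbp3 run the other way and Ifi44 is reddest in stem cells.

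In myeloid cells the set was lower in Rheb1-/- samples. Of 39 genes 22 were lower and 0 higher at an adjusted p under 0.05, where 17.6% of all 17727 genes tested were lower and 16.7% higher. None was higher at an unadjusted p under 0.05 either, where 20.7% of all genes were. In 37 of 39 genes the difference lay below 0, against 57.3% of all genes, and the median difference was -0.61, against -0.08 over all genes. Every Rheb1-/- array lay below every wild-type array for 25 genes (28.8% of all genes) and above for 1 gene, Ifnar2 (21.3%). By role, 15 of 28 effectors were lower (median -0.62), as were 1 of 4 sensors (median -0.41), 4 of 4 STAT or IRF regulators (median -0.49) and 2 of 3 receptor and feedback genes (median -0.66). The roles were not tested against each other. Without Rheb1-/- myeloid cell array 2, the lowest of its group for 27 of 39 genes, 14 genes passed, and without wild-type array 1 or 2, 15 passed. Bulk RNA cannot tell apart fewer cells that express a gene and less RNA of it per cell.

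Of the 8 direct antiviral proteins 5 were lower, among them 4 of the 5 genes with the largest differences of the set. Rsad2 (viperin), a radical SAM enzyme that makes a chain-terminating nucleotide, had log2 levels of 2.34, 0.83 and 1.76 in Rheb1-/- myeloid cells, against 3.40, 4.15 and 3.98 in wild type. The groups did not overlap, and the Rheb1-/- values spread more widely. The difference was -2.20 ± 0.38 (SE), 4.60-fold lower, with adjusted p = 0.00216. Isg20, an RNA exonuclease, stood at 1.64, 0.83 and 1.30 in Rheb1-/- and at 2.67, 2.73 and 2.83 in wild type. It was 2.80-fold lower, by -1.49 ± 0.17 (adjusted p = 0.000398), and its wild-type values were close together.

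Isg15, a ubiquitin-like protein that is joined to other proteins, had 1.90, 0.70 and 1.48 in Rheb1-/- myeloid cells and 2.92, 2.84 and 2.50 in wild type. All Rheb1-/- arrays were below all wild-type arrays, by -1.39 ± 0.30 (2.63-fold, adjusted p = 0.00642). Rtp4, a chaperone of membrane receptors that also restricts some viruses, had 3.67, 2.92 and 3.68 in Rheb1-/- and 5.09, 4.74 and 4.50 in wild type, a difference of -1.36 ± 0.28 (adjusted p = 0.00502). Mx1, a dynamin-like GTPase that blocks influenza virus, was lower by less, at -0.64 ± 0.13 (adjusted p = 0.00578), a call that was lost when all probes of the gene were averaged (-0.41). Ifitm3, which hinders viral fusion, did not pass, with 6.57, 6.59 and 6.70 in Rheb1-/- against 6.92, 6.69 and 6.51 in wild type. Its interval for the difference ran from -0.37 to 0.20. Mx2 differed by -0.18 (95% interval -0.78 to 0.42) and Bst2 (tetherin), which holds budding virus at the cell surface, by -0.30 (-0.67 to 0.07).

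Of the 2'-5' oligoadenylate synthetase family and Eif2ak2, the double-stranded RNA kinase PKR, 3 of 6 tested genes were lower. Oasl2, a synthetase-like protein, had 2.59, 1.82 and 2.51 in Rheb1-/- myeloid cells, against 4.47, 4.13 and 3.74 in wild type. The gap between the groups was wider than the range within either, and the difference was -1.81 ± 0.25 (3.50-fold, adjusted p = 0.000836). Oas3, which makes the second messenger that turns on RNase L, had 1.37, 1.05 and 1.15 in Rheb1-/- and 2.55, 1.92 and 1.89 in wild type, a difference of -0.93 ± 0.24 (adjusted p = 0.0141). Oas1a was lower by -0.64 ± 0.20 (adjusted p = 0.0332), without overlap, but passed in 16 of 23 other settings. Oas1a sits in a cluster of near-identical genes, so its probe may also take up RNA of its neighbours. Oas2 (-0.61, adjusted p = 0.107) and Oasl1 (-0.63, adjusted p = 0.137) did not overlap between genotypes and did not pass. Eif2ak2 differed by -0.10 (95% interval -0.33 to 0.13).

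None of the 3 Ifit genes, whose proteins bind foreign RNA, passed, and 1 was lower at an unadjusted p under 0.05. Ifit3 came nearest, with 1.89, 0.60 and 1.52 in Rheb1-/- myeloid cells and 2.46, 2.44 and 1.83 in wild type. The groups overlapped at their edge, and the difference of -0.91 ± 0.33 had an adjusted p of 0.0559. Ifit3 passed in 6 of 23 other settings, and its probe may not tell it apart from the near copy Ifit3b. Ifit1 differed by -0.84 (95% interval -1.73 to 0.06) and Ifit2 by -0.19 (-0.53 to 0.16).

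Among the interferon-inducible GTPases, some of which attack the vacuoles of intracellular microbes, 3 of 4 were lower. Igtp (-0.61 ± 0.17, adjusted p = 0.0216) and Irgm1 (-0.61 ± 0.16, adjusted p = 0.0174) did not overlap between genotypes. Gbp2 did overlap (-0.59 ± 0.20, adjusted p = 0.0443) and passed in 11 of 23 other settings, against 19 for each of the 2 immunity-related GTPases. Gbp3 had 1.94, 1.69 and 2.09 in Rheb1-/- and 2.04, 1.79 and 1.56 in wild type, a difference of 0.11 that did not pass. Of the 7 other effectors 4 were lower, namely Ifi44 (-0.93 ± 0.32, adjusted p = 0.0451, passing in 10 of 23 other settings), the apoptosis factor Xaf1 (-0.75 ± 0.20, adjusted p = 0.0166), the ADP-ribosyltransferase Parp14 (-0.56 ± 0.14, adjusted p = 0.0141) and the ubiquitin ligase Trim30a (-0.44 ± 0.11, adjusted p = 0.0127). The chemokine Cxcl10 (-0.61), the peptide transporter Tap1 (-0.63) and Ifi35 (-0.08) did not pass.

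The 4 STAT and IRF regulators all passed, with smaller differences than the leading effectors. Irf7 had 0.62, 0.11 and 0.20 in Rheb1-/- myeloid cells, against 1.48, 1.16 and 0.98 in wild type. The groups did not overlap, and the difference was -0.90 ± 0.20 (1.87-fold, adjusted p = 0.00827). Stat2 had 1.73, 1.71 and 1.69 in Rheb1-/- and 2.12, 2.39 and 2.20 in wild type (-0.53 ± 0.11, adjusted p = 0.00569). Irf9 was lower by -0.46 ± 0.12 (adjusted p = 0.0167) and Irf1, which answers mainly to interferon gamma, by -0.39 ± 0.09 (adjusted p = 0.0104). Irf9 and Irf1 lost their calls when all probes of a gene were averaged (-0.30 for each), and Irf9 also without Rheb1-/- array 2 or wild-type array 2.

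Of the 4 sensors Dhx58 (LGP2) passed, with 1.14, 1.16 and 0.98 in Rheb1-/- myeloid cells and 1.71, 1.70 and 1.56 in wild type (-0.56 ± 0.14, adjusted p = 0.0131). Its groups stood clear of each other. Ifi204, a DNA-binding protein of a family with near-identical members, differed by -0.52 (95% interval -0.97 to -0.08, adjusted p = 0.0679), and Ifih1 (MDA5) by -0.01 (-0.35 to 0.33). The other probes of Ifih1 did not all share its sign. Ddx58 (RIG-I) differed by -0.29 (-0.81 to 0.22) on its brightest probe, whereas its 3 other well-measured probes lay at -0.81 to -0.71. With the mean of all its probes Ddx58 passed, at -0.63 (adjusted p = 0.00293), so the count of sensors that passed depends on the choice of probe.

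Of the 2 chains of the receptor Ifnar1 passed and Ifnar2 did not, and the chains were not tested against each other. Ifnar1 had 0.20, 0.37 and 0.03 in Rheb1-/- myeloid cells and 0.88, 0.77 and 0.92 in wild type. It was 1.58-fold lower (-0.66 ± 0.09, adjusted p = 0.000883), with no overlap. Ifnar2 had 4.25, 4.27 and 4.47 in Rheb1-/- and 3.97, 4.21 and 4.25 in wild type, which do not overlap by less than the rounding, a difference of 0.19 (95% interval -0.03 to 0.40) that did not pass. Its other well-measured probe had the opposite sign, at -0.20. Usp18 was lower by -0.80 ± 0.24 (adjusted p = 0.0300), without overlap, and passed in 17 of 23 other settings.

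**Figure D2:**
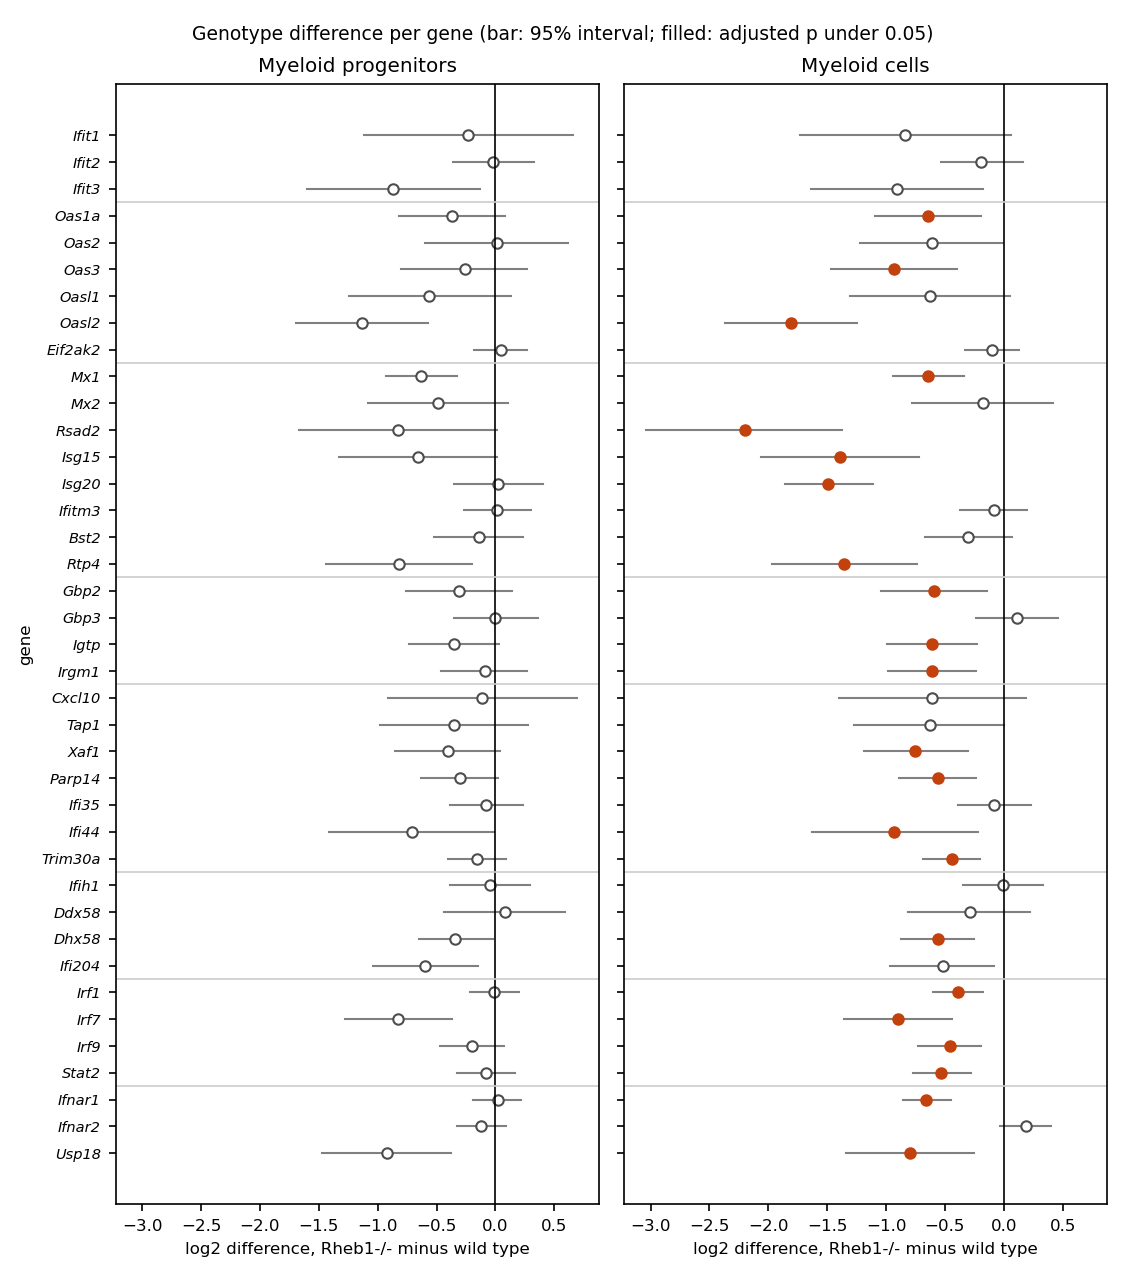
Log2 difference, Rheb1-/- minus wild type, of each gene in progenitors and in myeloid cells, on the same axis, with 95% intervals from limma and filled points where the adjusted p was under 0.05. No point is filled for progenitors, and 22 are filled for myeloid cells, from Irf1 at -0.39 to Rsad2 at -2.20.

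**Figure D3:**
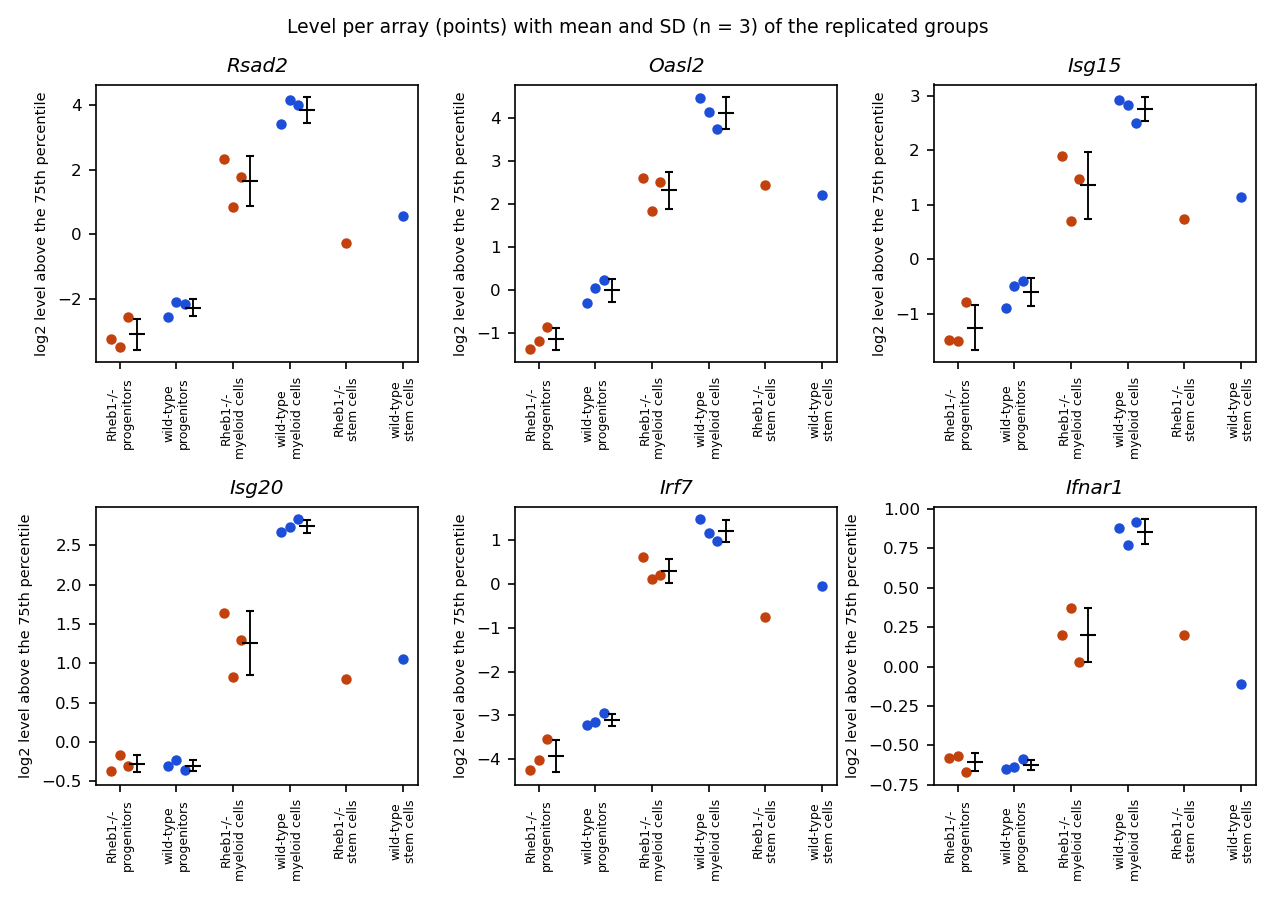
Log2 level of Rsad2, Oasl2, Isg15, Isg20, Irf7 and Ifnar1 on each array, with the mean and SD of the groups of 3, Rheb1-/- in orange left of wild type in blue. In myeloid cells the 3 Rheb1-/- points of each gene lie below the 3 wild-type points, and in progenitors the Isg15, Isg20 and Ifnar1 points of the genotypes overlap.

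Promoters are shown because many genes of the set share a motif. The choice of the set read no sequence, but it took genes that answer to interferon, which acts through such motifs. The share of promoters with a match is thus not independent of the choice, and the set also holds close relatives such as Oas1a and Oas1g. RefSeq promoters (GRCm38.p6, 250 bases before to 50 after the start) matched 32 of the 40 genes. The core of the interferon-stimulated response element, which is the tetramer GAAA repeated after any 2 bases, on either strand, was present in 19 of these 32 (59.4%), against 943 of 27025 promoters (3.5%). The GAS motif of STAT dimers, TTCNNNGAA, a palindrome, was present in 11 of 32 (34.4%), against 2288 of all promoters (8.5%). Among matched genes that were lower in Rheb1-/- myeloid cells 9 of 17 held the response element core, and among those that did not pass 9 of 14 did. Matches of the 2 motifs overlapped in 2 genes. A match is a description of the letters in this window. Below are the 250 bases before the start, 5' to 3' on the gene's strand, of the 4 matched genes that hold a core and had the largest negative differences in myeloid cells, of which Ifit3 did not pass, and of Oasl2, which had the largest among those without a core. Isg20 holds no core and Rtp4 was not among the matched genes. Cores are in capitals. They are chr12:26456453-26456702 on the minus strand for Rsad2, chr4:156200819-156201068 (minus) for Isg15, chr5:120777660-120777909 (minus) for Oas3, chr19:34583279-34583528 (plus) for Ifit3 and chr5:114896684-114896933 (plus) for Oasl2, all in GRCm38.p6.
Rsad2: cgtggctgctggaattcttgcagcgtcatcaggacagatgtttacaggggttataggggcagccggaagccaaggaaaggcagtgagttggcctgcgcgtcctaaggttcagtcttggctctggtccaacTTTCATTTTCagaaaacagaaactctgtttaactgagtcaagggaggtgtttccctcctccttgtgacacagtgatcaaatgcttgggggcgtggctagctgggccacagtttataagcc
Isg15: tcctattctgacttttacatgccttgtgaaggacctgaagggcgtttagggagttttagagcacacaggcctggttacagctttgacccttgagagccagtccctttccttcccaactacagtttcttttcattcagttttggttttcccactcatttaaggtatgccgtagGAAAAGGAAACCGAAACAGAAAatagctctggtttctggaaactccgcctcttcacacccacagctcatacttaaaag
Oas3: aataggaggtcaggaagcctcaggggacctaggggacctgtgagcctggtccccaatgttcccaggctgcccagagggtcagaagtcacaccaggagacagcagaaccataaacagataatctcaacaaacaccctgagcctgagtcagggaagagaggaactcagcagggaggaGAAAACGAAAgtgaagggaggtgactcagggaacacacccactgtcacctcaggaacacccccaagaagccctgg
Ifit3: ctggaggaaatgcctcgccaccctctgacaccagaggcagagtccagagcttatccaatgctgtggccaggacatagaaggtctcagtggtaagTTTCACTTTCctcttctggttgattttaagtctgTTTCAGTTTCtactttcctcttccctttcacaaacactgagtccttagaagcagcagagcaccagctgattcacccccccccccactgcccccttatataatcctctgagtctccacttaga
Oasl2: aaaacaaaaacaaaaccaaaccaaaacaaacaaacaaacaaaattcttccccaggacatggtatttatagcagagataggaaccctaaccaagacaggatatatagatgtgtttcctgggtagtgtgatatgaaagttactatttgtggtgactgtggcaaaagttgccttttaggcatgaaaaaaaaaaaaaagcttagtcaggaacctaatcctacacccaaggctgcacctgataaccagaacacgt
The Rsad2 match reads on the opposite strand, as do the 2 of Ifit3, which lie apart, and Isg15 has 3 overlapping matches. The array probes lie elsewhere, in the mm9 coordinates of the files, with that of Rsad2 at chr12:27127859-27127918, Isg15 at chr4:155573922-155573981, Isg20 at chr7:86061478-86061537, Oasl2 at chr5:115362168-115362227, Irf7 spanning chr7:148450664-148451014 and Ifnar1 at chr16:91507039-91507098.

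In myeloid progenitors 0 of 39 genes passed for genotype, where 13 of 17727 genes (0.0733%) did. At an unadjusted p under 0.05, 9 genes were lower and 0 higher, against 5.01% and 7.24% of all genes. In 32 of 39 the difference lay below 0 (45.6% of all genes), with a median of -0.26 against 0.02 over all genes. Within slide 3, 36 of 39 lay below 0 and the median was -0.48. The groups did not overlap for 12 genes with Rheb1-/- below (8.54% of all genes) and for 0 with it above (11.5%). Rheb1-/- array 3, on another slide than arrays 1 and 2, was the highest of its group for 30 genes, and wild-type array 1, also on another slide, the lowest of its group for 27.

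Oasl2 had -1.37, -1.20 and -0.87 in Rheb1-/- progenitors, against -0.32, 0.03 and 0.23 in wild type, the largest difference of the set at -1.13 ± 0.25 (adjusted p = 0.114, within slide -1.42). Mx1 had the smallest p of the set, with -5.32, -5.43 and -5.25 in Rheb1-/- and -4.55, -4.93 and -4.62 in wild type (-0.63 ± 0.13, adjusted p = 0.105). Neither gene overlapped between genotypes, and neither passed. Over the 25 other settings the difference of Mx1 ranged from -0.75 to -0.18 and that of Oasl2 from -1.42 to -1.01. Usp18 differed by -0.92 (adjusted p = 0.165), Irf7 by -0.83 (adjusted p = 0.140) and Ifit3 by -0.87 (adjusted p = 0.339), also without overlap. Across the 25 other settings 0 genes of the set passed. By role the medians were -0.31 for effectors, -0.19 for sensors, -0.14 for STAT or IRF regulators and -0.12 for receptor and feedback genes. Of sensors the smallest p was that of Ifi204 (-0.60, adjusted p = 0.280).

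Whether the genotype difference itself differed between cell types was tested as an interaction. It passed for 2 of 39 genes, both with the lower value in myeloid cells, against 11.1% of all genes in either direction and 5.45% in this one, with a median over the set of -0.26 and of -0.08 over all genes. Isg20 had -0.37, -0.16 and -0.30 in Rheb1-/- progenitors and -0.31, -0.23 and -0.36 in wild-type ones, which overlap, so that its genotype difference was 0.02 there and lay -1.51 ± 0.24 lower in myeloid cells (adjusted p = 0.0100). Ifnar1, with -0.58, -0.57 and -0.67 in Rheb1-/- progenitors and -0.65, -0.64 and -0.59 in wild-type ones, had an interaction of -0.67 ± 0.13 (adjusted p = 0.0160). With 10 arrays, the progenitors of slide 3 alone and all myeloid cells, 1 of the 2 passed, Isg20. For Rsad2 (-1.37, adjusted p = 0.115), Oasl2 (-0.68, adjusted p = 0.227) and Irf7 (-0.07, adjusted p = 0.887) the interaction did not pass.

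Most of the set was higher in myeloid cells than in progenitors in both genotypes. In Rheb1-/- 33 of 39 genes were higher and 2 lower in myeloid cells, where 30.3% and 38.3% of all genes were, with a median difference of 1.60 (-0.08 over all genes). In wild type 36 were higher and 2 lower, where 39.5% and 38.4% of all genes were, with a median of 1.85 (0.07 over all genes). These comparisons share arrays with the genotype comparisons. Wild-type myeloid cells lay on slide 1 and wild-type progenitors on slides 2 and 3, so cell type and slide cannot be told apart in wild type. In Rheb1-/- slide 4 held both cell types, but only 1 progenitor array, array 3, the highest of its group for 30 of 39 genes. With slide as a fixed block the Rheb1-/- comparison thus rests on that progenitor array alone, and no count is given for it. Rsad2 had 2.34, 0.83 and 1.76 in Rheb1-/- myeloid cells, against -3.23, -3.49 and -2.57 in Rheb1-/- progenitors, 26.7-fold higher (4.74 ± 0.38, adjusted p = 1.74e-06). In wild type it had 3.40, 4.15 and 3.98 in myeloid cells, against -2.56, -2.08 and -2.17 in progenitors, 69.2-fold higher (6.11 ± 0.38, adjusted p = 1.75e-07). The cell types stood apart by more than any spread within a group. The other large differences were those of Ifit3 (5.57 in Rheb1-/-, 5.62 in wild type), Oas3 (4.47 in Rheb1-/-, 5.14 in wild type), Irf7 (4.24 in Rheb1-/-, 4.31 in wild type) and Rtp4 (4.05 in Rheb1-/-, 4.58 in wild type), also without overlap. The size for Oas3 depends on the probe, since its other well-measured probe gave 2.65 in wild type.

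The exceptions were Gbp3 and Bst2, which were lower in myeloid cells. Gbp3 had 1.94, 1.69 and 2.09 in Rheb1-/- myeloid cells, against 2.92, 3.00 and 3.18 in Rheb1-/- progenitors (-1.13 ± 0.16, adjusted p = 0.000107). In wild type it differed by -1.23 ± 0.16 (adjusted p = 4.22e-05). Bst2 differed by -0.89 ± 0.17 in Rheb1-/- (adjusted p = 0.000828) and by -0.73 ± 0.17 in wild type (adjusted p = 0.00241). Ifi44 did not pass in either genotype (0.11 in Rheb1-/-, 0.33 in wild type). Irgm1 (0.21), Cxcl10 (0.57) and Tap1 (0.59) did not pass in Rheb1-/-. All 4 sensors, all 4 STAT or IRF regulators and all 3 receptor and feedback genes were higher in myeloid cells in both genotypes. The median difference of sensors was 1.76 in Rheb1-/- and 1.84 in wild type, and that of regulators 1.47 in Rheb1-/- and 1.79 in wild type. For receptor and feedback genes it was 0.88 in Rheb1-/- and 1.48 in wild type, and for effectors 1.63 in Rheb1-/- and 2.22 in wild type.

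**Figure D4:**
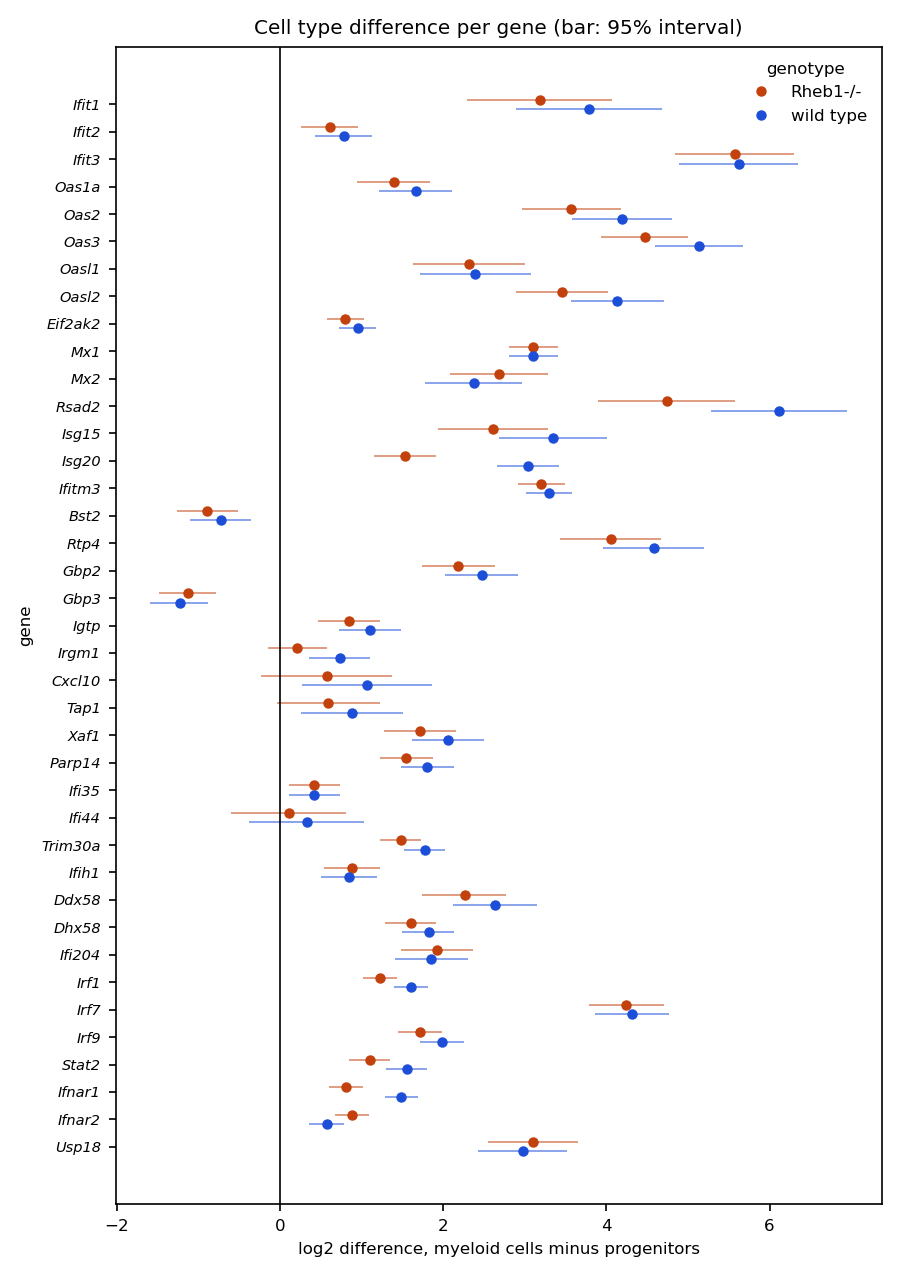
Log2 difference, myeloid cells minus progenitors, of each gene, with 95% intervals, for Rheb1-/- (orange, upper point of a pair) and wild type (blue, lower). Bst2 and Gbp3 lie left of 0 in both genotypes, and the intervals of Isg20 and Ifnar1 do not overlap between genotypes.

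In stem cells, with 1 array per genotype and no test, 2 of 39 genes differed by more than 2-fold between genotypes, both lower in Rheb1-/-, where 8.38% of 18647 genes were so lower and 9.73% higher. Cxcl10 had -1.06 in Rheb1-/- and 0.95 in wild type, and Ifit3 had -1.20 in Rheb1-/- and 0.70 in wild type. The difference lay below 0 for 21 genes and above 0 for 18, with a median of -0.06 (0.14 over all genes). The wild-type array lay between the wild-type progenitor and myeloid cell means for 36 genes. The Rheb1-/- array lay between the Rheb1-/- means for 27 genes, above both for 10 and below both for 2. Such positions were not counted over all genes, so they are not shown to be particular to the set. Ifi44 stood out, at 1.17 on the Rheb1-/- and 0.96 on the wild-type stem cell array, against -4.56 to -2.81 on the other 12 arrays. The macrophage markers, given above, were not the only list higher on the wild-type stem cell array. Plasmacytoid dendritic cell markers averaged 1.36 in wild type and 0.02 in Rheb1-/-. B cell markers had 0.46 in wild type and -1.19 in Rheb1-/-, and erythroid markers 0.26 in wild type and -1.36 in Rheb1-/-. Progenitor markers (4.83 in wild type, 5.36 in Rheb1-/-) and stem cell markers went the other way. With 1 array per genotype, the part of any list in the lower Cxcl10 and Ifit3 was not tested.

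Further lists held genes of the pathway outside the set. Of 47 further interferon-induced genes 15 were lower and 0 higher in Rheb1-/- myeloid cells (median -0.46), where 17.6% of all genes were lower and 16.7% higher. The 3 of smallest p are given. Oas1c had 0.15, -0.09 and 0.05 in Rheb1-/- and 1.08, 0.92 and 0.98 in wild type (-0.96 ± 0.09, adjusted p = 0.000232). Irgm2 had 2.47, 2.14 and 2.35 in Rheb1-/- and 3.46, 3.39 and 3.13 in wild type (2.01-fold lower, adjusted p = 0.000521). Neither overlapped, and Trim30d, a close relative of Trim30a, was lower by -0.57 ± 0.11 (adjusted p = 0.00370). Of 24 genes that act upstream, such as kinases, sensors and adaptors, 8 were lower and 2 higher (median -0.21), against the same shares of all genes. The 3 of smallest p were the receptor kinase Jak1 (-0.56 ± 0.08, adjusted p = 0.00120), the interferon gamma receptor chain Ifngr2 (-0.55 ± 0.09, adjusted p = 0.00181) and the Toll-like receptor chaperone Unc93b1 (-0.52 ± 0.10, adjusted p = 0.00314). The largest difference was that of the transcription factor Irf5 (-0.74 ± 0.14, adjusted p = 0.00346). Named, like Irf5, after their values were seen, the 2 that were higher were the DNA sensor Cgas (0.57) and the other interferon gamma receptor chain Ifngr1 (0.37). Of 18 listed interferon genes 12 were on the arrays and 8 of these could be tested. Of the 8, 0 passed for genotype in either cell type, against the shares of all genes given above for myeloid cells. At an unadjusted p under 0.05 there were 0 in myeloid cells and 1 (higher) in progenitors. Some of the 12 were dim, with means of the replicated groups of -8.05 to -6.63 for Ifnb1 and -7.90 to -5.99 for Ifna4, whereas those of Ifna7 were -4.21 to -0.65. In progenitors 0 genes of these lists passed. At an unadjusted p under 0.05 the 47 induced genes had 6 lower and 3 higher there, against 5.01% and 7.24% of all genes.

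Markers of other cell types also differed by genotype in myeloid cells, where 17.6% of all genes were lower and 16.7% higher. Plasmacytoid dendritic cells, which make much interferon, had 3 of 6 markers lower (Ccr9, Cox6a2 and Ly6d), with a mean log2 level of -2.93 to -1.80 over the Rheb1-/- arrays and -1.38 to -0.93 over the wild-type arrays. Conventional dendritic cells had 3 of 6 lower (Zbtb46, Itgax and Clec9a), at -3.82 to -3.26 in Rheb1-/- and -2.68 to -2.59 in wild type, with Clec9a not well above background on any Rheb1-/- array. Of 9 monocyte and macrophage markers 5 were lower and Vcam1 higher, at 2.05 to 2.61 in Rheb1-/- and 2.69 to 2.84 in wild type. Of 10 neutrophil markers 2 were lower (Mmp9 and Cxcr2), a share near that of all genes, at 7.71 to 7.87 in Rheb1-/- and 8.12 to 8.25 in wild type. Of 8 progenitor markers 6 were higher, at 4.08 to 4.20 in Rheb1-/- and 3.32 to 3.44 in wild type.

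Lower as well, against 17.6% of all genes, were 4 of 6 tested B cell markers (-2.56 to -2.02 in Rheb1-/-, -1.45 to -0.33 in wild type). Pax5 did not rise well above background in either group. Also lower were 5 of 6 erythroid markers (-1.53 to 0.17 in Rheb1-/-, 0.97 to 1.70 in wild type) and 4 of 6 megakaryocyte markers (-3.54 to -2.37 in Rheb1-/-, -1.99 to -1.35 in wild type). Of 7 tested T and NK cell markers 4 were lower and Nkg7 higher (-3.71 to -3.38 in Rheb1-/-, -3.63 to -2.58 in wild type), and Cd3g, Cd247 and Ncr1 were not well above background on any Rheb1-/- array. Of 6 stem cell markers 0 passed, with 2 lower and 1 higher at an unadjusted p under 0.05, where 4306 and 3665 of all 17727 genes were. The interferon response genes themselves averaged 1.32 to 1.78 over the Rheb1-/- arrays and 2.06 to 2.34 over the wild-type arrays. The part of these markers in the differences of the interferon response genes was not tested. In progenitors 0 markers of any list passed. At an unadjusted p under 0.05, where 5.01% of all genes were lower, all 6 megakaryocyte markers were lower there (-1.24 to -0.28 in Rheb1-/-, 0.40 to 1.08 in wild type). So were 5 of 9 monocyte and macrophage markers, at 0.38 to 0.78 in Rheb1-/- and 0.95 to 1.06 in wild type.

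**Figure D5:**
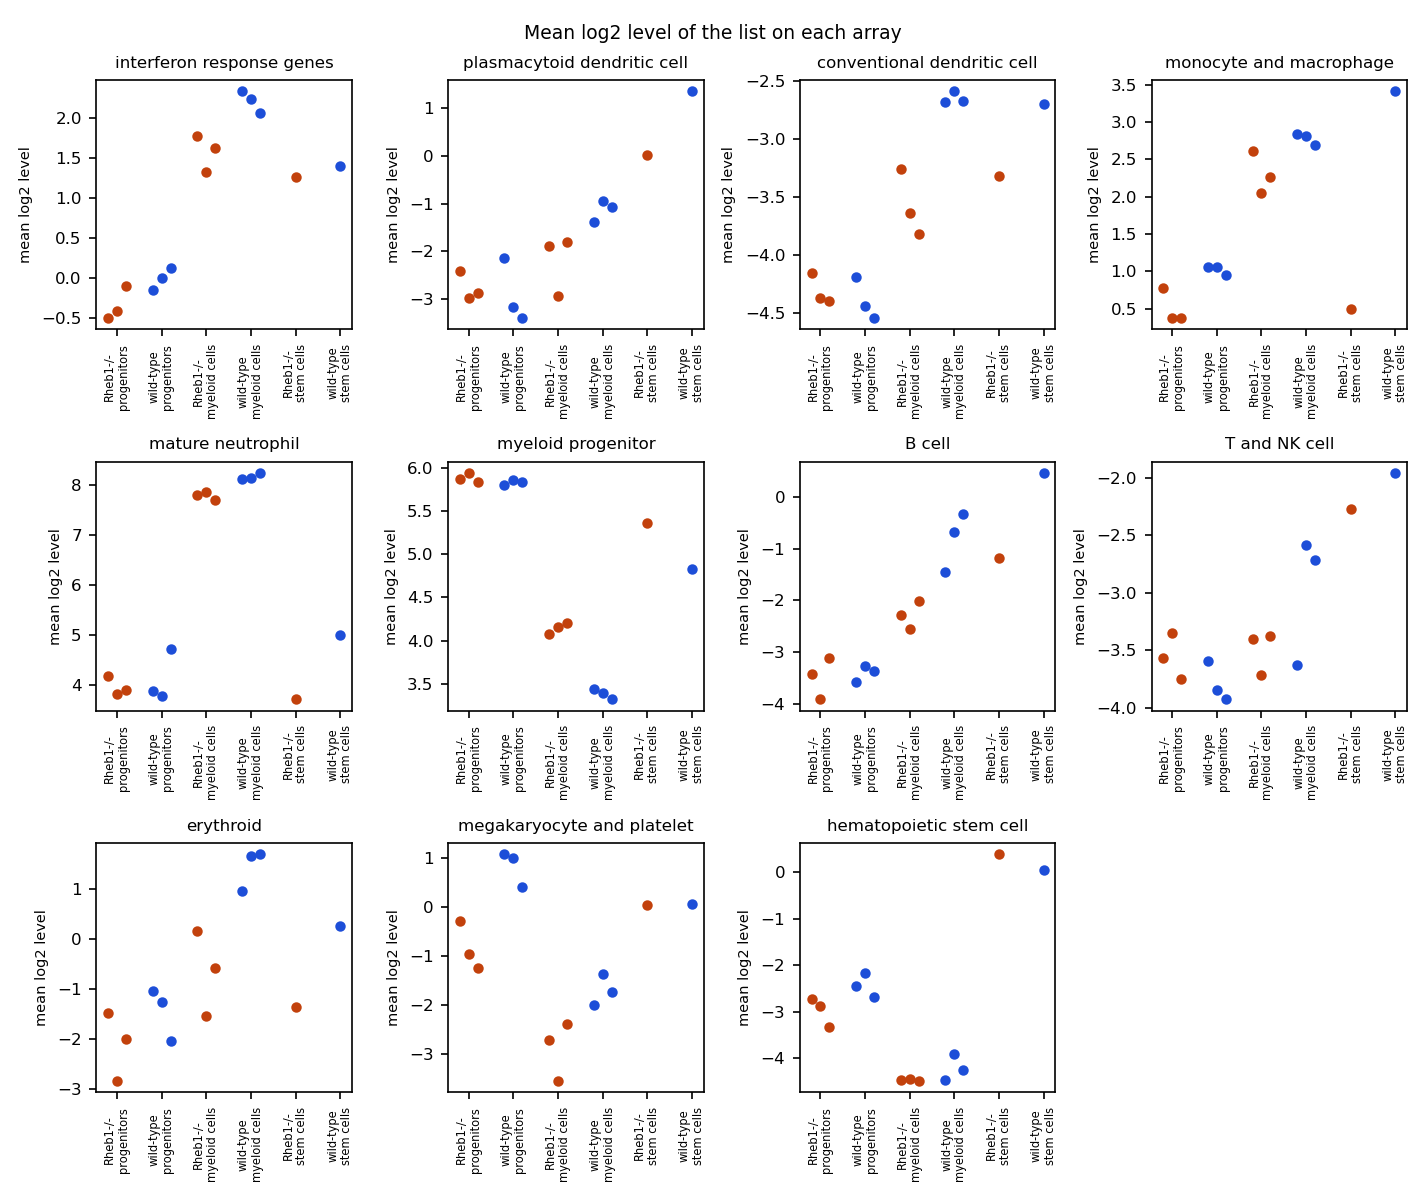
Mean log2 level on each array of the interferon response genes and of 10 marker lists, Rheb1-/- in orange left of wild type in blue, each panel with its own axis. In myeloid cells the Rheb1-/- arrays lie below the wild-type arrays for the interferon response genes and above them for the progenitor markers. They also lie below for the markers of both dendritic cell types, monocytes and macrophages, neutrophils, B cells, erythroid cells and megakaryocytes. The T and NK cell markers and the stem cell markers overlap there.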

How the data were processed

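Per the labels' protocols, Cy3-labelled RNA of 14 mouse samples went on Agilent arrays of 1 colour. The deposited scanner files give spot intensity, already background-subtracted by Feature Extraction within each array, per the file headers. These headers name version 10.7.3.1 and the submitters' processing notes version 9.1. The deposited value table holds log2 values that were quantile normalized, since its sorted columns differed by at most 0.00234, with column medians of 5.92. What background step it had is not stated in the sources used here.

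Control spots (1639) and 79 to 195 outlier spots per array were left out, spots of a probe were averaged (41174 probes), and probes took gene names by accession, symbol or older symbol from a RefSeq table. From each log2 intensity the 75th percentile of its array was subtracted. A gene was kept if every array of some replicated group had it well above background (17727 genes). A model of group means over the 12 replicated arrays was fitted in R 4.3.3 with limma 3.58.1 (statmod 1.5.0), with 8 residual and 1.95 prior degrees of freedom and a median residual SD of 0.183. P-values were Benjamini-Hochberg adjusted over all genes, two-sided, with a threshold of 0.05. Few arrays limit the precision. The deposited replicate numbers did not pair the samples (correlations of -0.154 to 0.133), so no block was used.

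On simulated data 67% of changes of 1 and 90% of changes of 2 on the log2 scale were recovered in each genotype comparison over 17727 genes, with 5 false calls in progenitors and 7 in myeloid cells among 17527. The simulation changed 100 genes of each size, alike in both cell types, with independent noise and no slide effect. The real comparisons called 13 genes in progenitors and 6065 in myeloid cells, so these rates are not the power of the real tests. The settings tried were normexp, quantile normalization, the value table, the mean of all probes, no filter and a filter on all 12 arrays, replicate or slide as a block, slide 3 alone, only the groups compared, an intensity trend, each array left out and, chosen after seeing the data, 10 arrays. Named were all members by role, those passing, and up to 3 passing genes of smallest p per other list. The members, lists and roles were chosen with earlier results of these data known. Some genes of the further lists are not reported here.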

Additional observations from a re-analysis of the deposited data

Results flagged for a closer look

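Both results here are differences between cell types in the genotype difference, tested as an interaction in limma over 12 arrays. They are the 2 of 39 members that passed, where 11.1% of all genes passed in either direction and 5.45% in this one. The set thus did not exceed the share of all genes. For Isg20 the genotype difference, Rheb1-/- minus wild type, was -1.49 in myeloid cells and 0.02 in progenitors, so that the first lay -1.51 below the second (adjusted p = 0.0100, with adjusted p of 0.00359 to 0.0432 over 22 other settings, all of which passed). For Ifnar1 it was -0.66 in myeloid cells and 0.02 in progenitors, an interaction of -0.67 (adjusted p = 0.0160, with 0.0101 to 0.0566 over 22 other settings, of which 21 passed). Slide and genotype cannot be told apart in the myeloid cell part of either comparison.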

How the results depend on the processing

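The count of 22 members lower in Rheb1-/- myeloid cells ranged from 14 to 22 with each array left out and from 18 to 24 in the other settings, and 11 of the 22 passed in all 23 settings, namely Isg20, Oasl2, Ifnar1, Rsad2, Rtp4, Stat2, Isg15, Irf7, Trim30a, Dhx58 and Oas3. Without Rheb1-/- myeloid cell array 2 the count was 14. With each array left out in turn the counts ranged from 0 to 0 for genotype in progenitors, from 2 to 3 for the interaction, from 36 to 38 for cell type in wild type and from 34 to 36 for cell type in Rheb1-/-. With 10 arrays the interaction count was 1, without Ifnar1. With replicate number as a block, a pairing that the check of the numbers did not bear out, the counts were 0 for genotype in progenitors, 21 for genotype in myeloid cells, 2 for the interaction, 38 for cell type in wild type and 35 in Rheb1-/-. Over the 39 tested members and 23 settings in myeloid cells, 819 values kept their direction and side of the threshold, 54 lost the call, 14 gained it and 10 changed sign. The gains were those of Ifit3 (6), Ifi204 (4), Oas2 (2), Ifit1 (1) and Ddx58 (1). The 10 changes of sign were all of members that did not pass and whose values lay close to 0. With each array left out in turn Gbp3 ranged from -0.01 to 0.23, Ifi35 from -0.18 to 0.00, Ifitm3 from -0.18 to 0.02 and Ifih1 from -0.13 to 0.07. With the mean of all probes Ifnar2 was -0.01 and Ifih1 0.05, and Ifih1 was 0.02 with normexp and 0.00 with slide as a random block. For genotype in progenitors Isg20 ranged from -0.03 to 0.07 and Ifnar1 from 0.00 (just below it) to 0.05 with each array left out. The interaction of Irf7 was 0.19 with 10 arrays and -0.23 to 0.13 with each array left out, and that of Rsad2 passed with normexp (-1.69) and without Rheb1-/- myeloid cell array 1 (-1.72). For cell type in Rheb1-/- slide as a fixed block, which sets myeloid cells against progenitor array 3 alone, gave -0.21 for Cxcl10 and -0.55 for Ifi44. In the same comparison Ifi44 ranged from -0.21 to 0.44 with each array left out, and Irgm1 was -0.02 with the mean of all probes. The causes were not tested. The median of the set in progenitors was -0.48 with only slide 3, with slide as a fixed block or with 10 arrays. These are the same estimate, since each takes the progenitor difference from the arrays of slide 3 alone. The median of wild-type cell type was 2.05 with the mean of all probes. Scaling moved the median of all genes for wild-type cell type by more than 0.1, with 0.07 as analysed, 0.15 with normexp and -0.05 with quantile normalization or the value table. Slide as a fixed block could be fitted for genotype in progenitors and cell type in Rheb1-/- only. Of the 12 members with several measured probes 10 had the same sign on all in myeloid cells and 8 in progenitors. Oas1g was too dim to test.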
